A study of Homo sapiens with 6 samples.

Results

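Transcription in untreated SH-SY5Y cells was described gene by gene from 2 PRO-seq libraries of the 6 in the series, the only ones labelled as having received no treatment. SH-SY5Y is a human neuroblastoma line, a subclone of SK-N-SH, so every value is that of 1 clonal line grown on plastic in high glucose medium with serum and not that of a tumour or a tissue. The other 4 libraries came from cells given 0.1 mM MPP+ for 0.5 h or 24 h, and no value from them is used here. The labels number the untreated libraries 1 and 2 without saying whether they came from separate cultures, so the spread between them may be technical. With 1 group of 2 libraries nothing was tested, and every comparison between genes is a description of this line.

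PRO-seq lets polymerases that are already engaged on DNA in isolated nuclei add biotin-labelled nucleotides, and sequences the RNA ends they make. It therefore reads where polymerases sit along a gene, introns included, and not how much mature RNA or protein a cell holds. Neuroblastoma arises from the sympathoadrenal branch of the neural crest, which makes sympathetic neurons and the chromaffin cells of the adrenal medulla. Neuroblastoma cells are known to occupy an adrenergic state, held by a circuit of factors such as PHOX2A, HAND2 and GATA3 that bind one another's enhancers, or a mesenchymal state that resembles earlier crest cells.

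The counting set what could be read. Genes lying in an intron of a protein-coding gene with over 500 counts were at 0 in both libraries in 3168 of 3169 cases on the host's strand and in 3647 of 3651 cases on the other strand. Of the genes whose whole span other genes cover, 99.3% were at 0, against 12.3% of genes with at least 500 bases of their own. Reads were thus counted over whole gene spans, without strand, and dropped where genes overlap. A level here sums both strands, and a gene covered by neighbours is called not countable rather than silent. Levels are given as CPM, counts scaled to the same total of assigned counts in each library. To compare genes, CPM was divided by the kilobases of the gene that no other gene of GENCODE 29 covers, its own length, and this quotient is called the density. As a yardstick of silence, 396 olfactory and taste receptor, keratin-associated protein and beta-defensin genes were taken, a set chosen after the counts had been seen, and 203 of them had 0 counts in both libraries. The 95th percentile of their densities, 0.151 in library 1 and 0.141 in library 2, is called the reference-silent level. A gene is said to pass it when its density is higher in both libraries. Not passing does not mean silent, above all for long genes. Without passing, 2137 countable protein-coding genes reached 1 CPM in both libraries, with a median own length of 74.5 kb.

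The libraries held 7044839 and 8381006 assigned counts. A count of 0 allows up to 0.426 CPM in library 1 and 0.358 CPM in library 2. At or above 1 CPM in both libraries were 22144 of 67051 listed genes. Among the 17510 countable protein-coding genes 83.9% reached 1 CPM and 72.9% lay above the reference-silent level, with a median density of 0.793. Protein-coding genes took 85.4% ± 0.460 (SD, n = 2) of the counts, lncRNA genes 9.37% ± 0.171, pseudogenes 1.95% ± 0.0551, gene models over the 45S ribosomal DNA 1.58% ± 0.224 and mtDNA 0.146% ± 0.00309. The exact Clopper-Pearson 95% intervals of these shares in a single library were at most 0.0516 percentage points wide and cover counting error only. No few genes dominated: the 10 highest took 3.06% ± 0.0953 of the counts, the 100 highest 9.13% ± 0.432 and the 1000 highest 30.7% ± 1.51.

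The protein-coding genes with the most polymerase were mostly long. Of the 20 highest by mean CPM, 17 span over 100 kb, with a median span of 439.9 kb against 30.5 kb for countable protein-coding genes. EXOC4, which encodes a subunit of the exocyst that tethers secretory vesicles, led with 3011 and 2801 CPM in libraries 1 and 2 over 813.5 kb. MEIS2, a homeodomain factor of the TALE class, followed with 2306 and 1862 CPM. SLIT3, a secreted axon guidance ligand, had 2095 and 1857 CPM. The receptor tyrosine kinase gene ALK, a known driver of neuroblastoma, had 1985 and 1857 CPM. MSI2, a Musashi RNA-binding protein, had 1765 and 1718 CPM, and the adhesion receptor gene ADGRL2 had 1522 and 1355. The ranges of MEIS2, SLIT3 and ALK over the 2 libraries overlap, whereas EXOC4 stood above every other protein-coding gene in both. TENM4, MYT1L, HDAC9, NFIB, TCF4, MAML3, AUTS2, UNC5C, NBEA, ZMIZ1 and TRIO filled much of the rest of the 20, each between 790.0 and 1322 CPM in either library. GATA3, TWIST1 and CCDC200, of 29.8, 96.7 and 88.5 kb, were the 3 members of the 20 under 100 kb.

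Per kilobase, genes with little own length came first, histone genes among them. The 10 densest protein-coding genes with at least 1 kb of own length had a median own length of 1.72 kb, and 6 of them encode histones. ID2, an inhibitor of basic helix-loop-helix factors, was the densest at 294 and 251 CPM per kb. The replication-dependent histone genes H3C15 (260 and 207), H3C14 (256 and 204), H4C5 (211 and 193), H2BC21 (199 and 194), H2BC8 (148 and 153) and H3C10 (138 and 153) were among them, in CPM per kb. H3C14 and H3C15 are near-identical copies, and reads could have been split between them in a way the files do not show. RRM2, the regulated subunit of ribonucleotide reductase, had 223 and 180 CPM per kb, measured over only 19.04% of its span. HEXIM1, the inhibitor of the elongation kinase P-TEFb, had 176 and 155, and MARCKSL1, an actin-binding protein of growing neurites, had 133 and 101. ALK, with its counts spread over 718.9 kb, had a density of 2.67 ± 0.126.

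**Figure D1:**
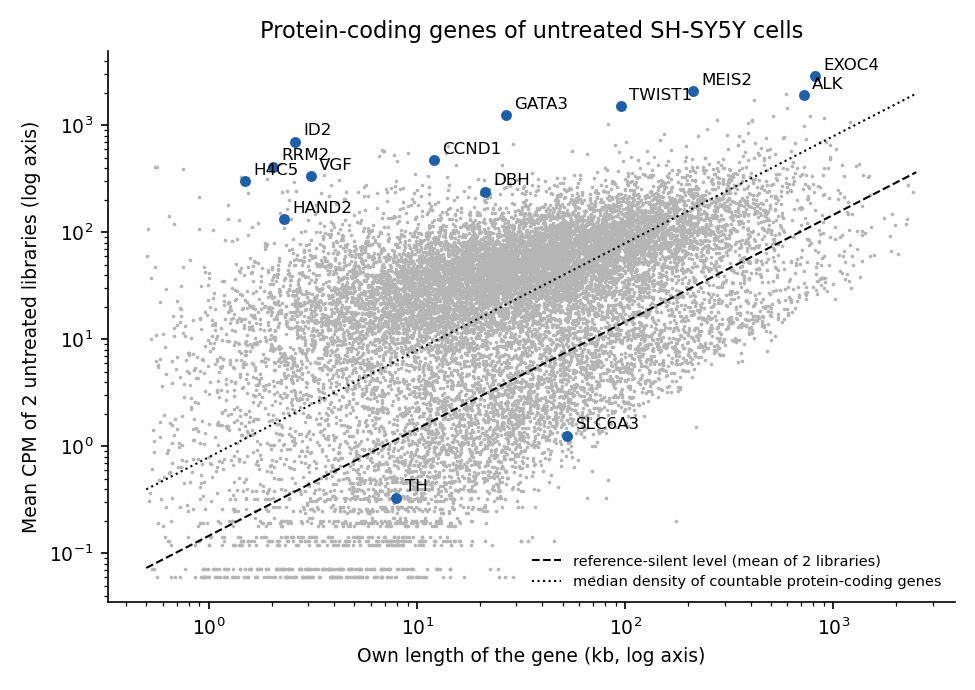
Mean CPM of the 2 untreated libraries against own length for countable protein-coding genes with a count (grey), both on log axes, with 14 named genes in blue. The dashed line is the reference-silent level, the mean of 0.151 and 0.141 CPM per kb, and the dotted line the median density of 0.793. EXOC4 and ALK lie at the top right, ID2 and H4C5 at the top left, and TH and SLC6A3 below the dashed line.

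Among genes that do not encode protein, ribosomal DNA came first. FP236383.1 (66181 and 96601 counts; 9394 and 11526 CPM) and FP671120.1 (34002 and 49118 counts; 4827 and 5861 CPM) are lncRNA models of 29.98 and 30.03 kb on chromosome 21 that cover 45S rDNA units in RefSeq. They were the 2 highest of all 67051 genes, and both were higher in library 2. Ribosomal DNA is a multicopy array transcribed by RNA polymerase I, and how reads were divided among its copies is not given in the sources used here. A further short model on chromosome 21, FP671120.4, had 758 and 359 CPM. Its log2 ratio of library 2 over library 1, -1.08, was the largest in either direction among the 20 highest of these genes. Without the rDNA models the 100 highest genes held 7.76% of the counts in place of 9.13%.

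The highest Pol II noncoding genes included neighbours of the lineage factors. DANT2 on the X chromosome had 1147 and 1230 CPM, and LINC02268 on chromosome 4 had 1174 and 955. HAND2-AS1, which starts inside HAND2 on the opposite strand, had 882 and 731 CPM over 132.4 kb. CASC15, at a neuroblastoma risk locus on chromosome 6, had 779 and 684. LINC00682, also on chromosome 4, had 656 and 482 CPM in only 10.2 kb, a density of 55.7 ± 12.04. MALAT1 had 576 and 491 CPM (density 64.4 ± 7.26), ZFAS1, a host of box C/D snoRNAs, 736 and 559, and PVT1, next to MYC, 543 and 444. Of 19 countable lncRNAs on a list tied to development and neuroblastoma, 13 lay above the reference-silent level, against 44% of all countable lncRNA genes. GATA2-AS1 (170 and 123 CPM) was also high. HOTAIR, HOTAIRM1 and HOXB-AS3, from the HOX clusters, were at 0 in both libraries, and HOTTIP had 2 and 0 counts. Without strand, reads of a coding gene and of an antisense partner were told apart only where the 2 do not overlap.

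Nuclear lncRNAs and hosts of snoRNAs were mostly dense. Of 20 countable members 18 lay above the reference-silent level, against 44% of all countable lncRNA genes, and 15 reached 4.47 CPM per kb, the density at which the top 10% of countable protein-coding genes begins. Their median density was 16.9. GAS5 (286 and 306 CPM), SNHG5 (337 and 249), SNHG1 (294 and 178) and FTX (206 and 209) followed ZFAS1 and MALAT1. NEAT1, the scaffold of paraspeckles, was much thinner, at 0.586 and 0.701 CPM per kb. DANCR was listed at 0 in both libraries, as was JPX, whose own length is 1.72% of its span.

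Small RNA genes held little of the signal, but most of them could not be counted. No own length was left in 765 of 991 snoRNA genes and 1148 of 1909 snRNA genes. The same held for 1458 of 2272 genes of the 5S, Y, vault and other small RNA class. Of all genes wholly covered by others 99.3% were at 0, so the low shares do not show that these classes were little transcribed. Genes of the annotated snRNA class, which holds Pol II genes and the Pol III genes of U6 and 7SK, took 0.130% ± 0.0407 of the counts, snoRNA genes 0.136% ± 0.0151, and the 5S, Y, vault and other small RNA genes 0.0824% ± 0.00770. The U3 genes SNORD3A (390 and 323 CPM), SNORD3B-2 (352 and 309) and SNORD3B-1 (350 and 305) led. They are near-identical copies, so their separate values are uncertain. U1 genes followed, with RNU1-1 at 104 and 66.5 CPM, RNVU1-18 at 95.4 and 56.1, and RNVU1-7 at 91.1 and 51.1, as did RNU5B-1 at 73.1 and 54.1 and RNU4-2 at 62.0 and 61.5. Of the Pol III list, 10 of 21 matched genes reached 1 CPM, led by RNA5S1 (39.3 and 35.9 CPM) and RNY1 (16.9 and 10.5). RN7SK, RN7SL1, RN7SL2, RPPH1 and RMRP could not be counted, since other gene models cover them wholly or nearly so. The snRNA and Pol III genes named are under 500 bases, so no density is given for them.

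Primary transcripts that carry microRNAs were read through their host genes, because microRNA genes inside them are covered by the host. Of the 15 hosts with the highest CPM, 14 lie on chromosomes other than 8, and all 31 microRNA genes listed inside these 14 were at 0 in both libraries. A microRNA acts through its seed, bases 2 to 8, and microRNAs with the same seed share target sites. The mature sequences below, from RefSeq on GRCh38.p14, are those of 9 of these hosts, chosen after their values were seen, with the seed in capitals. The let-7 family, whose mature forms accumulate as cells differentiate, was carried by 4 of these hosts:
let-7a-5p: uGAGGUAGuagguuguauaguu
let-7b-5p: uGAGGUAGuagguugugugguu
let-7c-5p: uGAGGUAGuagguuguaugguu
let-7i-5p: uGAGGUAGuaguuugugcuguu
miR-99a and miR-100 share a seed with each other and their hosts with let-7, as does miR-125b:
miR-99a-5p: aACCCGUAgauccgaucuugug
miR-100-5p: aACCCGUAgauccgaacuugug
miR-125b-5p: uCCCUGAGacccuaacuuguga
Neural microRNAs and the growth-linked miR-17 cluster had hosts of their own:
miR-9-5p: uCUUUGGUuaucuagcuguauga
miR-137-3p: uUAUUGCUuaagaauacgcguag
miR-7-5p: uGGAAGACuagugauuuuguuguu
miR-17-5p: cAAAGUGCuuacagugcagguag
miR-20a-5p: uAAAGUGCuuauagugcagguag

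MIRLET7BHG, which holds let-7a-3 and let-7b on chromosome 22, was the highest host at 787 and 582 CPM and a density of 12.9 ± 2.73. MIR99AHG, which holds let-7c, miR-99a and miR-125b-2, had 584 and 487 CPM over 716.8 kb, a density of 0.778 ± 0.0999. MIR100HG, the paralogous host of let-7a-2, miR-100 and miR-125b-1, had 163 and 163 CPM and a density of 0.317. MIRLET7IHG had 71.3 and 70.2 CPM. The densities of these 4 hosts of the GAGGUAG seed, from 0.317 to 12.9, are those of whole host genes and not of the let-7 hairpins. Of the hosts of neural microRNAs, MIR124-1HG on chromosome 8, which holds miR-124, had 83.2 and 87.2 CPM and a density of 16.3 ± 0.547. MIR137HG had 224 and 216 CPM, MIR9-1HG 133 and 135, MIR9-3HG 67.7 and 69.6, and MIR7-3HG 81.3 and 100.5 in 3.39 kb, the densest of the 15 highest hosts at 27.7 ± 4.12. MIR17HG, with the AAAGUGC seed in miR-17 and miR-20a, had 122 and 82.7 CPM and a density of 16.3 ± 4.398. Of 69 host genes countable by name, 55 reached 1 CPM in both libraries. Of countable protein-coding genes 83.9% did, and of all lncRNA genes, countable or not, 33.3%. Mature microRNAs were not measured.

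The 4 marker genes of the line were all transcribed. HAND2 (ENSG00000164107, chr4:173524969-173530229, minus strand, GENCODE 29 on GRCh38), a basic helix-loop-helix factor of sympathetic neurons, had 1106 and 912 counts, or 157 and 109 CPM, and a density of 68.2 in library 1 and 47.3 in library 2. GATA3 (ENSG00000107485, chr10:8045378-8075203), a zinc-finger factor required in the sympathoadrenal lineage, had 9299 and 9678 counts and densities of 49.3 and 43.1. DBH (ENSG00000123454, chr9:133635348-133659344), the enzyme that turns dopamine into noradrenaline, had 1592 and 2146 counts and densities of 10.6 and 12.04. ALK (ENSG00000171094, chr2:29192774-29921566) had 13985 and 15562 counts and densities of 2.76 and 2.58. All 4 lay above the reference-silent level and the median of 0.793 in both libraries. HAND2-AS1 overlaps the 5′ part of HAND2 on the opposite strand, and only 43.7% of its span could be counted.

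Most adrenergic transcription factors were dense. Of 25 factors 23 reached 1 CPM in both libraries. Over the 23 countable factors, 22 reached 1 CPM (83.9% of all countable protein-coding genes did), 21 lay above the reference-silent level (72.9%) and 14 in the top 10% by density, with a median density of 10.1 against 0.793. SOX11, a SoxC factor of immature neurons, had densities of 122 and 70.5 over the 40.8% of its span that could be counted. PHOX2A, a paired-like homeodomain factor that specifies autonomic neurons, had 80.1 and 78.8. HAND1 (50.9 and 42.4), GATA2 (43.2 and 28.6), HEY1 (28.9 and 21.1), ISL1 (26.3 and 20.9) and TFAP2B (25.1 and 20.9) were lower than PHOX2A in both libraries. Neighbours in this order, such as SOX11 and PHOX2A, had overlapping values in the 2 libraries, so their order among themselves is not resolved. The low end held KLF13 (0.726 and 0.722) and INSM1 with 4 counts in each library. EYA1 (0.138 and 0.182) and DACH1 (0.138 and 0.121) did not pass the reference-silent level, although each had at least 352 counts in either library. TBX2 and SATB1 were not countable, the former being covered by other models. TBX2-AS1, which spans TBX2 on the opposite strand, had 31.1 and 32.5 CPM over the 11.5% of its span that could be counted.

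**Figure D2:**
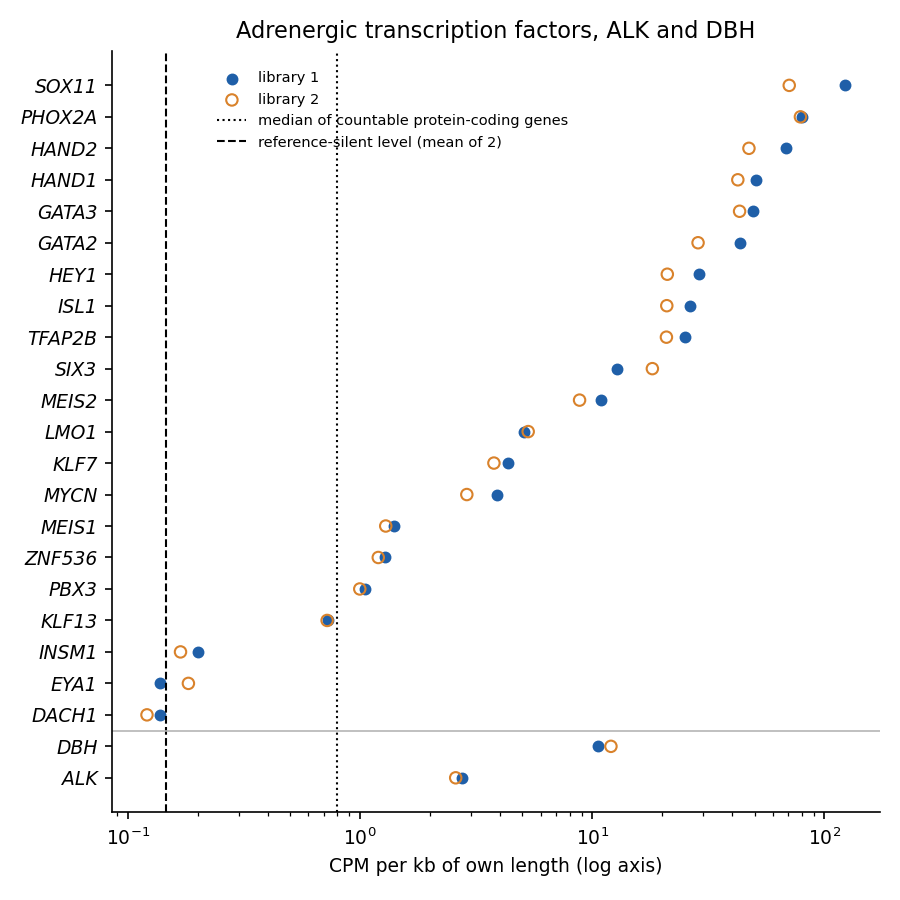
Densities (CPM per kb of own length, log axis) of 21 countable adrenergic transcription factors and, below the line, DBH and ALK, with 1 point per untreated library. The dashed line marks the reference-silent level and the dotted line the median of countable protein-coding genes. SOX11 and PHOX2A lie furthest right, and INSM1, EYA1 and DACH1 lie at the dashed line.

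The 250 bases before the RefSeq start site are shown for HAND2, VGF and DBH, which were dense, and for PITX3, which was not, because their base composition differs. Short words were searched on both strands. They were AGATAA or TGATAA, which GATA factors bind, TGACGTCA, the full cAMP response element, and CATCTG, an E-box. The words do not overlap in the windows printed, where each match is in capitals, and a match is not a bound site. Sequences are from RefSeq on GRCh38.p14, 5′ to 3′ on the gene's strand. The promoter of HAND2 (chr4:173530230-173530479, minus strand) held GATA words 222 and 172 bases before the start and 13 CG pairs; 12.2% of all 19047 windows hold such a word. The promoter of VGF (chr7:101165570-101165819, minus strand), the densest neurosecretory gene, held a cAMP response element 79 bases before the start, as 2.17% of windows do, and 27 CG pairs. The promoter of DBH (chr9:133636113-133636362, plus strand) held none of the words and 5 CG pairs. PITX3 (chr10:102241513-102241762, minus strand), a factor of midbrain dopamine neurons, is shown as a gene not above the reference-silent level, with none of the words and 23 CG pairs.
HAND2: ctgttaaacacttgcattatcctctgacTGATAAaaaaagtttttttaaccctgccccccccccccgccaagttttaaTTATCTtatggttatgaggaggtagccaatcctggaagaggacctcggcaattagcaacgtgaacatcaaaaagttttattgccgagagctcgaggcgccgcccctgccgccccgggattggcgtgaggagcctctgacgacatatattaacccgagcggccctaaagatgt
VGF: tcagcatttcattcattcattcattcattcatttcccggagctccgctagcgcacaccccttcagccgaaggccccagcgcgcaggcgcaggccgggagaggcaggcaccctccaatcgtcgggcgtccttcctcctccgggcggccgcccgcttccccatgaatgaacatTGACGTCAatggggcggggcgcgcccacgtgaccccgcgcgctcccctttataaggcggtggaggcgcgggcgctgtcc
DBH: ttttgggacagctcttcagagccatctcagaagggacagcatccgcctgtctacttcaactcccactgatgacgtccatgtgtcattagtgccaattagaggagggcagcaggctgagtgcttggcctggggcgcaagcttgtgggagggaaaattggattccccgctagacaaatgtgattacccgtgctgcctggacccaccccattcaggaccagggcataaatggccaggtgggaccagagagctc
PITX3: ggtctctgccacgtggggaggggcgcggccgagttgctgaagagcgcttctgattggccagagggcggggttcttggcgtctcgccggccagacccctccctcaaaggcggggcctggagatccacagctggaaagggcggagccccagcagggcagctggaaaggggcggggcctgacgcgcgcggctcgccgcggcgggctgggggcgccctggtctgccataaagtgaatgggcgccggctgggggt

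Over all countable protein-coding genes with a window, the 10086 above the reference-silent level had a median of 21 CG pairs (quartiles 13 and 28), and the 3521 others a median of 5 (quartiles 2 and 16). Adrenergic, catecholamine, neurosecretory and pan-neuronal genes had a median of 20 above the level (54 genes) and 14 below it (6 genes). Genes of the lists of other cell types had 10 above it (21 genes, quartiles 4 and 14) and 7 below it (65 genes, quartiles 4 and 23). This gap in medians was smaller than over all genes, and the upper quartile was higher below the level than above it. DBH, with 5, had the median CG count of the genes that did not pass, yet was in the top 10% by density. PITX3, with 23, had more than the median of the genes that passed, yet did not pass. Words in a short window say nothing about factors bound elsewhere.

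Most genes of the catecholamine pathway passed the reference-silent level, whereas those of tyrosine hydroxylase and the dopamine transporter did not. Of 17 countable genes 15 lay above the reference-silent level (72.9% of all countable protein-coding genes), with a median density of 2.23. TH, tyrosine hydroxylase, the rate-limiting enzyme of catecholamine synthesis (ENSG00000180176, chr11:2163929-2171877), had 3 and 2 counts over an own length of 7.95 kb. Its densities of 0.0536 and 0.0300 were below the reference-silent level, and both counts were at or under the floor of 3. SLC6A3, the dopamine transporter, had 11 and 8 counts over 52.6 kb, densities of 0.0297 and 0.0181. By contrast SLC6A2, the noradrenaline transporter, had 1715 and 1664 counts and densities of 5.02 and 4.09. DDC, which makes dopamine from L-DOPA, had 5.10 and 4.86 over the 20.6% of its span that could be counted. GCH1 (1.88 and 2.70), which starts the synthesis of the cofactor tetrahydrobiopterin, and CYB561 (11.8 and 11.5), which regenerates ascorbate in vesicles for DBH, were above the median of 0.793. PNMT, the enzyme that makes adrenaline, had 150 and 254 counts and densities of 8.53 and 12.1. The vesicular carriers SLC18A1 (0.600 and 0.734) and SLC18A2 (0.554 and 0.544), and the degrading enzyme MAOA (0.604 and 0.460), lay below that median but above the reference-silent level. TH and SLC6A3 were low in both libraries, while DDC and DBH, the later steps of noradrenaline synthesis, were not. The gene annotation that was counted holds other versions of TH and SLC6A3. Whether other genes cover them in it was not tested, so their low densities are uncertain.

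The neurosecretory list, peptides and granule proteins, had 12 of 15 countable genes above the reference-silent level, close to the 72.9% of all countable protein-coding genes, and a median density of 1.82 against 0.793. VGF, a granin-like peptide precursor, had 2062 and 3209 counts and densities of 94.9 and 124. It stood far above the next genes. CHGA (6.37 and 8.62), CHGB (4.49 and 6.18) and DLK1 (4.29 and 5.54) were higher in library 2, and SCG2 (5.54 and 4.22) in library 1. NPY, the cotransmitter of sympathetic neurons, had 3.04 and 3.25. CADPS, PCSK2 and CADPS2, with 258 kb or more of own length, lay between 0.0343 and 0.121 and did not pass, although each had at least 124 counts in either library. VIP had 11 and 21 counts. In cholinergic genes 8 of 10 countable members passed the level, also close to that share. The ganglionic nicotinic subunits CHRNA3 (3.38 and 3.20), CHRNA5 (2.89 and 2.34) and CHRNB4 (1.09 and 1.57), and CHRNB2 (7.11 and 6.82), passed, as did ACHE, acetylcholinesterase (3.68 and 5.13). CHAT, which makes acetylcholine, was weak at 0.318 and 0.572 and SLC5A7, which takes up choline, had 5 and 13 counts. BCHE was listed at 0 in both libraries and SLC18A3 was not countable.

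Pan-neuronal genes were nearly all transcribed. Of 32 countable members 29 lay above the reference-silent level (72.9% of all countable protein-coding genes did), 8 were in the top 10% by density, and the median density was 1.45. TUBB2B, a tubulin of young neurons, was the densest at 36.3 and 31.0. UCHL1 (15.9 and 11.8), STMN2 (11.5 and 9.29), STMN1 (11.8 and 8.72) and the RNA-binding protein gene ELAVL4 (6.11 and 4.79) were all higher in library 1. NEFL had 8.30 and 11.3. Synapsin gene SYN1 was low at 0.296 and 0.340. The 3 members below the level were the long genes RBFOX1, RBFOX3 and ANK3, with 423 kb or more of own length and at least 406 counts in either library. PRPH and SNAP25 were not countable.

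Neuroblastoma drivers lay above the reference-silent level in 19 of 19 cases (72.9% of all countable protein-coding genes did), and 7 were in the top 10% by density. CCND1, cyclin D1, had 3517 and 3697 counts and densities of 41.6 and 36.8. MYC (20.7 and 13.8) exceeded MYCN (131 and 115 counts; 3.91 and 2.88) in both libraries; SH-SY5Y is known to lack MYCN amplification. LIN28B, which blocks let-7 maturation, had 1382 and 1491 counts and densities of 1.38 and 1.25. ATRX had 1.20 and 1.10, and TERT 0.877 and 0.854. Among growth factor receptors 14 of 20 passed the level, near the 72.9% of all countable protein-coding genes, with a median of 0.586 against 0.793. RET, the receptor for GDNF family ligands, was the densest with a full span, at 6.09 in library 1 and 3.19 in library 2. PDGFRB (2.35 and 2.72) and FGFR1 (1.93 and 1.74) followed. NTRK3 (0.0289 and 0.0283), GFRA1 (0.0577 and 0.0612), ERBB4 (0.0351 and 0.0353) and NTRK2 (0.108 and 0.0642) did not pass. Each of them had at least 80 counts in either library, whereas NGFR had 6 and 11 counts. PDGFRA had 6.16 and 3.53, but over only 4.30% of its span.

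A few mesenchymal regulators were dense, and most other mesenchymal genes were thin. Of 26 countable members 15 lay above the reference-silent level (72.9% of all countable protein-coding genes did) and 3 in the top 10% by density, with a median density of 0.223 against 0.793. TWIST1, SNAI1 and SNAI2, the 3, are inducers of epithelial-mesenchymal transition that neural crest cells also use. TWIST1 had 12186 and 10999 counts, SNAI1 713 and 821, and SNAI2 524 and 419. Their densities were 18.2 and 13.8, 17.2 and 16.6, and 17.98 and 12.08. The TWIST1 model in GENCODE 29 covers 96.7 kb, far beyond its coding exons, and the tables hold another version of it, so its density is uncertain. Other genes that mark the mesenchymal state were low. PRRX1, its core factor, had 12 and 8 counts and densities of 0.0228 and 0.0128. VIM, vimentin, passed the level with 12 and 15 counts (0.279 and 0.293), over the 65.3% of its span that could be counted. The release counted holds another version of VIM too, so its density is also uncertain. POSTN had 4 and 2 counts and TWIST2 20 and 21. FN1 (0.362 and 0.358), COL1A2 (0.422 and 0.348), NOTCH3 (0.664 and 0.615) and FOSL1 (1.23 and 1.89) passed but were, FOSL1 apart, below the median of 0.793. YAP1 had 0.0699 and 0.0607. THY1 and IRF1 were not countable.

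**Figure D3:**
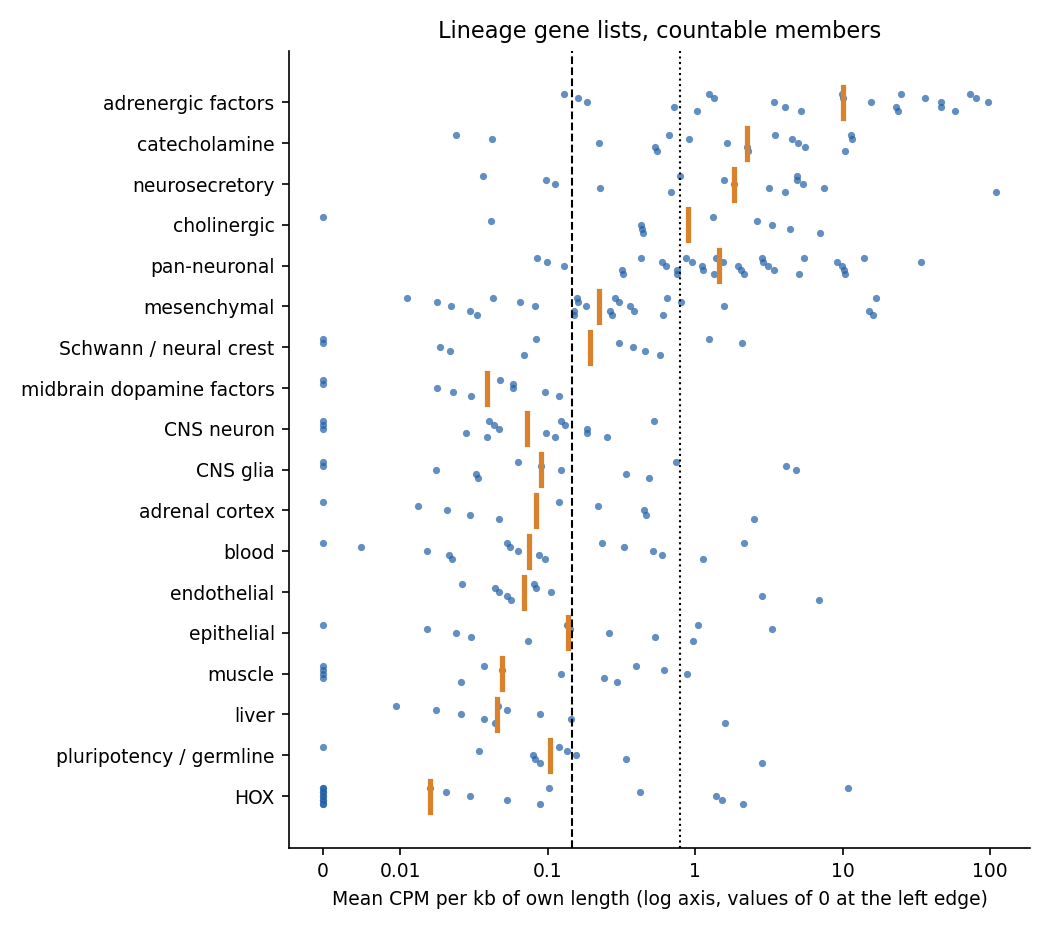
Mean density over both untreated libraries (CPM per kb of own length, log axis) of each countable member of 17 lineage lists and of the HOX genes. Each point is a gene, the bar is the list's median, and genes at 0 stand at the left edge. The dashed line is the reference-silent level and the dotted line the median of countable protein-coding genes. The medians of the 5 neural and adrenergic lists at the top lie right of the dotted line, and those from midbrain dopamine factors down lie left of the dashed line.

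Most markers of other cell types did not pass the reference-silent level. Over 11 lists, from Schwann cells to pluripotency, 38 of 131 countable members lay above the reference-silent level (72.9% of all countable protein-coding genes), the median density was 0.0796, and 36 members had at most 3 counts in each library. Not passing is not the same as no counts: 72 of the 131 reached 1 CPM in both libraries, and the median density of the silent genes themselves was 0. By summed level the lists ranged from 9.51 and 10.9 CPM for the midbrain dopamine factors to 274 and 238 CPM for Schwann and neural crest genes, most of the latter from ZEB2, and 245 and 248 CPM for epithelial genes, most of these from EPCAM. None of the 10 midbrain dopamine factors passed the level: OTX2 and FOXA2 were at 0, NR4A2, EN1 and EN2 had at most 3 counts, and LMX1A and LMX1B had densities from 0.0200 to 0.0582. Of 16 countable genes of central neurons 2 passed, SLC17A7 with 15 and 22 counts and DLX2 with 9 and 20. Of 13 glial genes 5 passed, among them TMEM119 (3.99 and 4.22), SLC1A2 (0.514 and 0.453) and GFAP (29 and 31 counts). Of 12 Schwann and crest genes 6 passed, led by ZEB2 (1469 and 1335 counts; 1.40 and 1.07), with FOXD3 at 0 and SOX10 not countable.

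Adrenal cortex genes passed in 4 of 10 countable members, against 72.9% of all countable protein-coding genes. STAR, which moves cholesterol into mitochondria, had 84 and 97 counts and densities of 2.56 and 2.48, whereas CYP11B2 was at 0 and CYP21A2 and NR0B1 had at most 1 count. Blood genes passed in 6 of 16, with CD8A at 1.01 and 1.24, and with HBB, CD3D and MS4A1 at or under 3 counts. Endothelial genes passed in 2 of 10, CLDN5 (6.97 and 6.78), in the top 10% by density, and EGFL7 (2.67 and 2.96). CDH5, TIE1, KDR and TEK lay between 0.0409 and 0.0614. The long genes FLT1 (106 and 145 counts) and VWF (101 and 119) did not pass either. Epithelial genes passed in 5 of 12, led by EPCAM with 1038 and 1088 counts (3.52 and 3.10), while KRT5, KRT14 and KRT18 had at most 1 count. GRHL2, with 175.9 kb of own length, had 152 and 215 counts and did not pass in both libraries. Muscle genes passed in 5 of 13 and liver genes in 1 of 10, with ALB at 3 and 7 counts. Germline and pluripotency genes passed in 2 of 10, NANOS3 (365 and 438 counts; 2.81 and 2.83) and LIN28A, with TDGF1 at 0 and SOX2 not countable.

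HOX genes, which set position along the body axis, were silent apart from a few. Over the 4 clusters 5 of 21 countable genes lay above the reference-silent level, against 72.9% of all countable protein-coding genes. Of the 21, 14 had at most 3 counts. All 7 countable HOXA genes were at 0 in both libraries, and of 4 HOXB genes the highest was HOXB7 with 2 and 4 counts. HOXD3 had 1128 and 1164 counts and densities of 11.5 and 10.0, and HOXD10 had 109 and 131 counts. HOXD11 and HOXD1 passed with 6 to 19 counts. HOXC4 had 242 and 446 counts and densities of 1.66 and 2.57, while HOXC12 was at 0. Of the 39 HOX genes listed, the others were not countable because of overlapping antisense and readthrough models.

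All countable genes of the lists for ribosomal proteins, translation factors, histones, glycolysis and cytoskeleton, and heat-shock proteins lay above the reference-silent level. Of all countable protein-coding genes 72.9% did. Densities in these lists ranged widely. Of 69 ribosomal protein genes 65 were in the top 10% by density, with a median of 15.4 and a range from 0.737 to 92.25, and the list took 0.729% and 0.662% of the counts. RPS27 (88.4 and 96.2), RPS23 (82.6 and 59.9) and RPS2 (66.4 and 70.8) were among the densest. Translation factors and abundant RNA-binding proteins passed in 16 of 16, with HNRNPA2B1 the highest (752 and 542 CPM), NCL (369 and 251) and NPM1 (337 and 243). All 27 countable replication-dependent and linker histone genes passed, 25 in the top 10% by density, with a median of 70.3. H1-4, a linker histone, had 622 and 424 CPM per kb over 0.754 kb. Glycolysis and cytoskeleton genes passed in 16 of 16, with GAPDH at 74.2 and 69.8 and ACTB at 9.48 and 10.7. Heat-shock genes passed in 13 of 13, HSP90AB1 at 76.2 and 61.8 and the inducible HSPA1A at 4.29 and 6.05. Of 14 countable immediate early genes 10 passed, near the 72.9% of all countable protein-coding genes. JUND (39.2 and 40.3), JUN (31.6 and 20.4) and MYC led. FOS had 15.9 and 15.98, IER2 13.8 and 16.3, and EGR1 13.98 and 8.73. KLF4 and EGR3 had at most 2 counts in each library, and IER3 and NR4A3 were listed at 0.

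The 2 libraries agreed closely for most genes. Over 16324 genes with a mean of at least 50 counts the median absolute log2 ratio was 0.18, and 171 genes, 1.05%, were over 2-fold apart. Genes with a mean of 500 to 5000 counts had an SD of the log2 ratio of 0.21 against 0.072 from counting alone, so the libraries differed by more than counting error. Among genes with a mean of at least 100 counts, RAB38, a GTPase of lysosome-related organelles, was the most different, with 61 counts in library 1 and 512 in library 2 (log2 ratio 2.82). LINC02099, CAPNS1, FIBP and AP003550.1 were also higher in library 2, by 1.29 to 1.56 on the log2 scale. RNVU1-17, RNA5SP74, U1, RNU2-63P and EIF4A1P4 were lower in library 2, with log2 ratios between -1.42 and -1.22. The 28 snRNA genes with enough counts had a median log2 ratio of -0.66. Adrenergic factors were lower in library 2 in 18 of 22 genes, with a median of -0.20, where 41.1% of all genes were lower and the median was 0.06. SOX11 had 435 CPM in library 1 and 251 in library 2, and RET 324 and 170. Ribosomal protein genes were lower in 55 of 69 (median -0.16) and translation factors in 14 of 16 (median -0.17). Protein-coding genes with up to 10 kb of own length had a median of 0.18, and those over 100 kb -0.03.

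**Figure D4:**
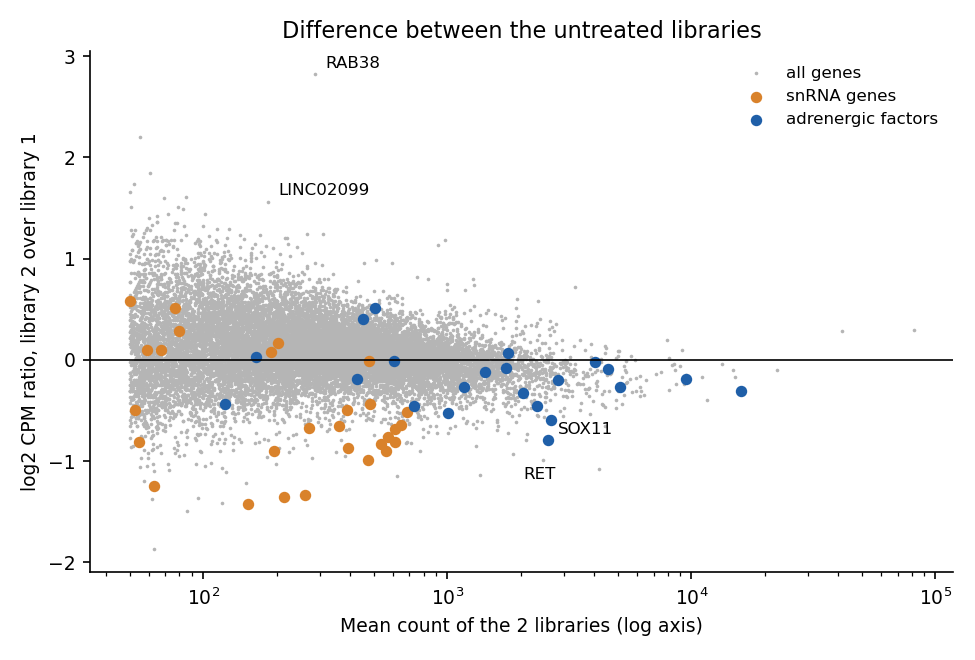
Log2 ratio of CPM in library 2 over library 1 against the mean count (log axis) for genes with a mean of at least 50 counts (grey), with snRNA genes in orange and adrenergic factors in blue. RAB38 stands highest at 2.82, most snRNA genes lie below 0, and 18 of 22 adrenergic factors lie below 0.

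Density differed between chromosomes. To hold gene length near constant, the 7524 protein-coding genes above the reference-silent level with 10 to 100 kb of own length were compared, with a median density of 1.29. Chromosome 7 stood above the others, with a median of 2.06 in library 1 and 2.10 in library 2 over 345 genes. Chromosome 17 followed at 1.58 and 1.67, and the X chromosome was lowest at 0.804 and 0.939. Chromosome 7 held 7.58% of the counts and 4.56% of the protein-coding genes, and 4 of the 20 highest protein-coding genes, EXOC4, TWIST1, HDAC9 and AUTS2, lie on it. The share of its countable genes above the reference-silent level, 74.7%, was near that of all chromosomes, 72.9%. Copy number was not measured here.

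**Figure D5:**
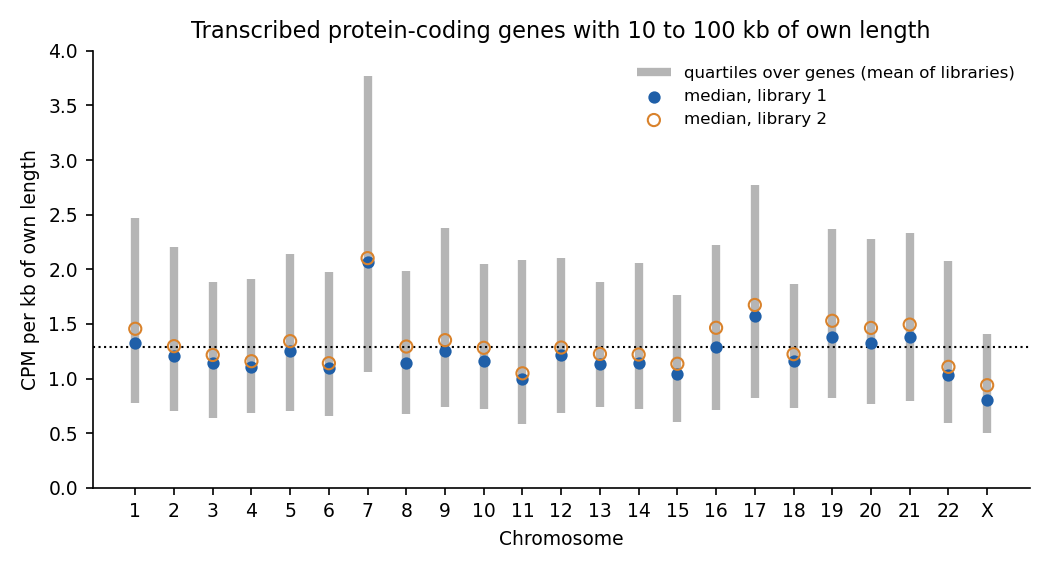
Median density (CPM per kb of own length) of transcribed protein-coding genes with 10 to 100 kb of own length on each chromosome, with 1 point per untreated library and grey bars for the quartiles over genes of the mean of both libraries. The dotted line is the median over all these genes, 1.29. Chromosome 7 stands at 2.06 and 2.10 and the X chromosome lowest.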

How the data were processed

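PRO-seq libraries of untreated SH-SY5Y cells were analysed from the 2 deposited tables of counts per gene. Per the submitters' processing notes, cutadapt 1.16.5, Bowtie2 2.4.2, SAMtools 1.13 and featureCounts 2.0.1 were among the tools and hg38 the build. Neither the labels nor the headers give the feature type, the strand setting or the release of the gene annotation; the first 2 of these were read from the counts themselves. The deposited counts were scaled to CPM by the total per library, 7044839 and 8381006. Of 67051 gene IDs, 58464 matched GENCODE 29 by base ID and 38241 with the same version. IDs matched a symbol in a table of gene names for 42023 genes and took the GENCODE 29 name for 16527, and 8501 IDs without a symbol held 0.916% of the counts. Own length is the part of a gene's span that no other GENCODE 29 gene covers on either strand, and densities need at least 500 bases of it.

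The lists (33 of them, 644 symbols of which 640 matched) and the genes described were chosen with earlier results of these data known. Genes named are the 20 highest protein-coding and 20 highest other genes by mean CPM, the 10 densest protein-coding genes, the markers, for each list up to 6 of its highest members and those at or under 3 counts, and the 5 genes most different between libraries in each direction among those with a mean of at least 100 counts. Other list members named, the microRNA hosts, the promoters and the transporters were chosen after their values were seen. Values are given per library or as mean and SD of n = 2, and no test was made, since there was 1 group. The own-length step and the scaling were tested on simulated data. Alternatives were TMM scaling (edgeR 4.0.16), other levels, denominators and rankings, and each library alone. The 4 MPP+ libraries and the authors' tables of comparisons were not used, and the values of some list members are not reported here. Python 3.11.15 with pandas 2.3.3 was used.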

Additional observations from a re-analysis of the deposited data

How the results depend on the processing

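The count of 22144 genes at or above 1 CPM stayed within 1.5 times under each alternative tried, from 16754 at 5 CPM to 24241 at 0.5 CPM, and the count of adrenergic factors lay between 21 and 23. The protein-coding share of 85.4% became 86.7% among nuclear genes outside the 10 highest and 86.8% without the rDNA gene models, the latter chosen after seeing the data, and was 85.1% to 85.8% in either library alone. Of 38 values for the other 10 classes, 3 moved beyond the spread between libraries (1 SD). Those of each library alone could not move, since with n = 2 each library lies within 1 SD of the mean. The share in the 100 highest genes, 9.13%, became 8.55% among protein-coding genes and 7.76% without the rDNA models. The median absolute log2 ratio between libraries, 0.18, was 0.22 for genes with a mean of at least 10 counts and 0.12 at 500, where counting error is smaller. No paired analysis was possible because a single group was described. Depth limits low genes: with the floor of 3 counts, a gene of less than 2.82 kb of own length in library 1, or 2.54 kb in library 2, cannot be shown to be under the reference-silent level. Own lengths come from a GENCODE release that differs from the one counted, so single densities of genes with another version can be wrong.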

Other observations

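The agent used elsewhere in the series, MPP+, enters cells through monoamine and organic cation transporters. SLC6A2 had 243 and 199 CPM, a density of 4.56 ± 0.654. SLC29A4, the plasma membrane monoamine transporter, had 57.6 and 63.6 CPM and a density of 1.87 ± 0.130. SLC6A4 (0.234 ± 0.0496) was above the reference-silent level of 0.151 and 0.141, and SLC22A2 (0.0508 ± 0.00800), SLC22A3 (0.0220 ± 0.00609) and SLC6A3 (0.0239 ± 0.00815) were below it. The list was chosen after the values were seen, and transport was not measured.

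The level of 1 CPM and the reference-silent level divided genes differently by length. Of countable protein-coding genes, 2137 reached 1 CPM in both libraries without passing the reference-silent density, and their median own length was 74.5 kb.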
